A study of Mus musculus with 6 samples.

Results

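The phagocyte NADPH oxidase was followed in mouse leukemia stem cells (LSCs), either WT or with Piezo1 targeted for deletion (Piezo1cKO). The 6 genes followed were those of its membrane part (Cybb, Cyba), its cytosolic part (Ncf1, Ncf4) and its Rac GTPases (Rac1, Rac2). These 6 genes were chosen by name, as parts of the enzyme, from the 55367 gene symbols in the expression table. All 6 had values in every library and all 6 passed the filter on low values, among 16746 genes tested. The comparison was of 3 WT with 3 Piezo1cKO LSC libraries of RNA-seq. PIEZO1 is a mechanically gated cation channel. Mice were 8 to 10 weeks old. Piezo1cKO cells came from Piezo1 fl/fl mice with Mx1-cre, and WT cells from Piezo1 fl/fl littermates. The background was C57BL/6J. According to the paper, mice of both groups were injected with poly(I:C). Mx1-cre and the deletion thus go together, and the part of Mx1-cre itself was not tested. In both groups, Lin- bone marrow cells were infected with a retrovirus carrying MLL-AF9 and YFP and grew into acute myeloid leukemia (AML) in irradiated recipients, from whose marrow LSCs were sorted by surface markers. Mx1-cre is switched on by interferon in blood cells and in other tissues, so that deletion depends on induction and can be incomplete. The sources do not say which round of transplantation was sequenced, or whether the 3 libraries of a group came from separate mice, and p-values then measure only the spread between these libraries, which may be technical.

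The oxidase passes electrons from cytosolic NADPH across a membrane to oxygen and so makes superoxide. Cybb encodes gp91phox, the catalytic subunit that carries the heme and flavin, and Cyba encodes p22phox, its partner in a membrane heterodimer, and each of the pair needs the other for stability. In resting cells the cytosolic organizer p47phox (Ncf1) and the lipid-binding adaptor p40phox (Ncf4) stay apart from the membrane, and phosphorylation of p47phox together with GTP-bound Rac brings the parts together. Rac2 is the Rac of blood cells, whereas Rac1 is found in nearly all cells. Cybc1 (EROS) is a chaperone that the gp91phox and p22phox pair needs to mature. Cybc1 is not among the 6 members and is given beside them. The enzyme is best known from neutrophils and macrophages, where it makes the microbicidal oxidative burst, and it is also present in myeloid progenitors and many AML cells.

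Sequences upstream of the transcription start were taken from RefSeq for the members of the membrane heterodimer, since the RNA of this pair diverged between the groups. RefSeq promoters were matched for 3 of the 6 members (Cybb, Cyba and Ncf1). The stretches below are the 250 bases before the start on GRCm38.p6, chrX:9469325-9469574 for Cybb and chr8:122432941-122433190 for Cyba, both read on the minus strand. Capitals mark AGGAA, a narrower form of the core GGAA bound by ETS factors such as PU.1. They also mark CCAAT, the box bound by NF-Y, for which C/EBP factors are named. GGAA after a base other than A was not marked. Each was searched on both strands.
Cybb: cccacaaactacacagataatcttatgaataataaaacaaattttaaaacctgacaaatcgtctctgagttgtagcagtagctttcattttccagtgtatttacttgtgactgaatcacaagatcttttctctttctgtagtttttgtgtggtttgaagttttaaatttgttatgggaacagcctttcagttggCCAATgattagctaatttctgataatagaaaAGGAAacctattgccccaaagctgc
Cyba: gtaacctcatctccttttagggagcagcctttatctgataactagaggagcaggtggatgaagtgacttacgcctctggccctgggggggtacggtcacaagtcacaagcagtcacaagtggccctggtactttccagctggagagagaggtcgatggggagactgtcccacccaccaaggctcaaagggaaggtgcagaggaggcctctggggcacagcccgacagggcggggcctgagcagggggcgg
The Cybb stretch held 1 AGGAA, from 25 to 21 bases before the start, and 1 CCAAT, from 56 to 52 bases before it, both on the coding strand. The Cyba and Ncf1 stretches held neither, although both hold GGAA after a base other than A, on one strand or the other. Over all 32851 promoter windows of that length, 60.3% held AGGAA and 33.8% held CCAAT on either strand, so both motifs are common. The HIF core, ACGTG or GCGTG, was in none of these 3 stretches and in 38.6% of all windows. These matches describe letters, and no binding was measured here.

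Rac1 and Rac2 are close paralogs, and the coding sequences of GENCODE (release M21) show how far reads from the pair can be told apart. Both coding sequences had 579 bases with the stop codon, 77.0% of bases were identical, and the longest identical run was 29 bases. The last 60 coding bases, which include the tail that anchors each protein to membranes, are shown as an example, with differing bases in capitals, from base 520 to base 579 of each coding sequence.
Rac1: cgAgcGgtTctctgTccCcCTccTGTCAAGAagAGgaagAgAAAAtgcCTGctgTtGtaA
Rac2: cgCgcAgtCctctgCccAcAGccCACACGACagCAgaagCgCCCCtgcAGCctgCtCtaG
In this stretch 28 of 60 bases differed.

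The deposited values are log2 values normalized for library size and pulled towards the mean of each gene, in the form of a regularized log, which makes differences smaller. The transform could be undone to recover reads. Values came out within 0.1 of a whole number for 94.46% of values of genes with a mean of 1 to 1000 reads and for 70.75% of those of genes above, where the members lie. The farthest from a whole number was 0.419 of a read for Cyba, 0.207 for Rac2 and 0.136 for Ncf4, and under 0.1 for Cybb, Ncf1 and Rac1. Each of the 6 libraries gave between 14112070 and 15483569 recovered reads. Below, normalized reads are recovered reads divided by the size factor of the library, and the deposited log2 fold change with its adjusted p (limma, Benjamini-Hochberg over all 16746 genes) is the test. Piezo1 itself, the targeted gene, had 101, 92.8 and 109 normalized reads in WT libraries and 36.6, 56.5 and 45.8 in Piezo1cKO libraries, with no overlap. It fell by 0.29 on the deposited log2 scale (limma adjusted p = 5.8e-06), and its Piezo1cKO mean was 45.9% of WT, so Piezo1 reads were not absent. Markers of the LSC gate, Kit, Cd34 and Fcgr3, were present in all libraries, at group means of 2522 to 5796 normalized reads. Kit was at 136%, Cd34 at 156% and Fcgr3 at 98.5% of WT, whereas Fcgr2b, on the same list, fell to 48.1%. Of the 7 genes of the LSC gate and leukemia list, 2 rose and 2 fell, where 31.6% of all genes tested rose and 31.4% fell. Of the neutrophil genes, Retnlg was listed at 0 and Ly6g had at most a single read, whereas Camp, Ngp, S100a8 and S100a9 were present in WT libraries at group means of 687.6, 1277, 215.5 and 262.6 normalized reads and fell to 100.4, 139.5, 18.9 and 6.09. Of the macrophage genes, C1qa was listed at 0, whereas C1qb, C1qc and Mrc1 went from at most 0.673 to between 10.8 and 21.8. Of the T and NK cell genes, Cd8a was listed at 0, whereas Klrb1c went from 0 to 41.1 and Gzma from 0.336 to 7.48. Nkg7, the gene of this list with the most reads, fell from 4095 to 2457, and Cd3d from 5.23 to 0.65. Of 4 tested T and NK cell genes, 2 rose and 2 fell. The summed CPM (normalized reads scaled to the mean library total) of the neutrophil list, of which Mpo and Elane made up most, was 34400 to 37200 in WT and 17500 to 19000 in Piezo1cKO libraries. Of its 11 tested genes, 9 fell and 1 rose. The gene that rose was Mmp8, from 42.5 to 634.5 normalized reads (log2 fold change 1.82). The monocyte and macrophage list summed to 2100 to 2150 CPM in WT and 1640 to 1720 in Piezo1cKO libraries, and without F13a1 to 590 to 617 and 621 to 648. Of its 11 tested genes, 4 rose and 2 fell (median log2 fold change -0.02), and Ccr2 rose to 225% of WT. Dendritic cell markers went from 57.4 to 65.1 CPM up to 522 to 528, mostly Cd74 and H2-Ab1, and mast cell and basophil markers from 196 to 204 up to 647 to 662. B cell markers summed to 103 to 107 CPM in WT and 162 to 177 in Piezo1cKO libraries, T and NK cell markers to 269 to 281 and 166 to 170, erythroid markers to 8.08 to 9.83 and 2.53 to 2.82, and LSC gate and leukemia markers to 1340 to 1360 and 1400 to 1430. The part of these shifts in the results below was not tested. In bulk samples, fewer cells of a type and less RNA per cell cannot be told apart.

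Among the 6 members, Cybb fell, Cyba and Ncf4 rose slightly, and Ncf1, Rac1 and Rac2 did not pass the test. Cybb in Piezo1cKO LSCs was at 67.1% of its WT level, whereas the means of the other 5 members lay between 93.5% and 109% of WT. Thus 2 of 6 members were higher and 1 of 6 lower, against 31.6% and 31.4% of all genes tested, and 63.0% of all genes passed in either direction. With the libraries shifted to one median, 38.5% of all genes were higher and 25.2% lower, and the members again gave 2 and 1, whereas quantile normalization gave 1 and 1. A share of members near that of all genes is not a result about the members, and the differences lie in which subunit moved and how far. The median log2 fold change was 0.02 over the members and 0.001 over all genes. By limma, 4 members had an unadjusted p under 0.05, and 3 an adjusted one. None of the members was a differentially expressed gene (DEG, adjusted p under 0.05 and absolute log2 fold change over 1), against 0.818% of all genes. None was a DEG by limma-voom on recovered reads either, against 24.9% there, where 62.9% of 17352 genes passed at an adjusted p under 0.05 (limma-voom) and the members again gave 2 higher and 1 lower. Values of the groups did not overlap for 3 members, 2 lower (Cybb, Ncf1) and 1 higher (Ncf4), and for 66.6% of all genes.

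**Figure D1:**
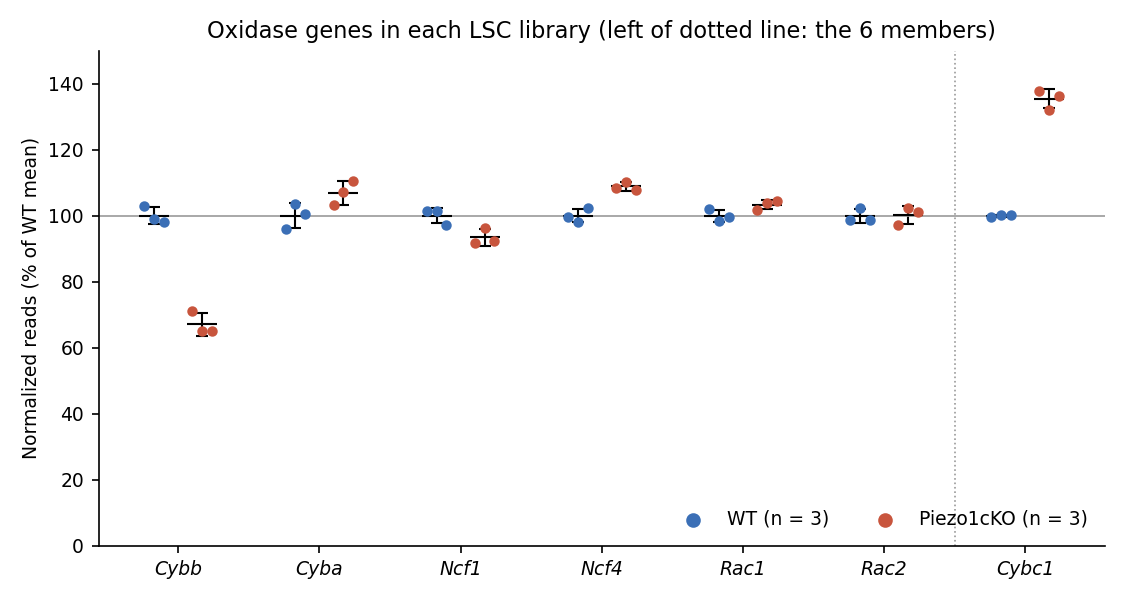
Normalized reads of each oxidase gene in each library, as a percentage of the WT mean (vertical axis, from 0), for WT (blue) and Piezo1cKO (red) LSCs. Dots are libraries, bars are the mean and SD of 3 libraries, and the gene right of the dotted line is not a member. Cybb is at 67.1% of WT and Cybc1 at 135%, and the other genes lie between 93.5% and 109%.

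Cybb, which encodes the catalytic subunit gp91phox (X:9435252-9487771, minus strand, GRCm38), had deposited log2 values of 11.134, 11.096 and 11.086 in WT and 10.762, 10.673 and 10.676 in Piezo1cKO libraries. Its normalized reads were 2403, 2314 and 2293 in WT and 1662, 1518 and 1522 in Piezo1cKO libraries. Every Piezo1cKO library was below every WT library. The deposited log2 fold change was -0.40 (SE 0.031, limma adjusted p = 2.61e-09), and 7.16% of all genes changed at least as much on that scale. Such shares are given on the deposited scale throughout. On recovered reads the log2 fold change was -0.58 with a 95% confidence interval from -0.67 to -0.49, which is 67.0% of WT (62.9% to 71.3%). Among recovered reads, 24.9% of 17352 genes were DEGs and so changed by more than Cybb. Cybb lies on the X chromosome, and the libraries did not differ in sex: Xist had at most 1 read and the Y-linked Ddx3y between 1953 and 2207 reads in all 6. The neutrophil marker sum given above fell in the same libraries, and its part in the Cybb values was not tested. The genes whose values over the 6 libraries followed Cybb most closely, among all genes tested, were Poc5, Ezh2 and Nfil3. After each gene was centred on its own mean, each differed from Cybb by a root mean square of 0.014, where the values of Cybb itself had one of 0.204. With 6 libraries in 2 groups, any gene with a like difference between the groups ranks high by this measure.

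Cyba, which encodes the partner p22phox (8:122424776-122432930, minus strand), did not fall with Cybb. It had 7248, 7815 and 7594 normalized reads in WT and 7790, 8087 and 8339 in Piezo1cKO libraries. The groups overlapped, with the lowest Piezo1cKO library below the highest WT library. The log2 fold change was 0.07 (SE 0.025, limma adjusted p = 0.0182), and 56.9% of all genes changed at least as much. This call was lost when WT replicate 1 (0.049, adjusted p = 0.113), WT replicate 3 (0.073, adjusted p = 0.0587), Piezo1cKO replicate 2 (0.069, adjusted p = 0.0652) or Piezo1cKO replicate 3 (0.053, adjusted p = 0.119) was left out of the limma fit. It was also lost under quantile normalization (0.047, adjusted p = 0.115) and without a variance trend (adjusted p = 0.0681). A gene on the opposite strand, Gm20388, spans Cyba but shares no exon base with it.

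Because the 2 subunits form a heterodimer, their reads were also set against each other within each library, a comparison added after the values were seen. The ratio of Cybb to Cyba reads was 0.332, 0.296 and 0.302 in WT and 0.213, 0.188 and 0.183 in Piezo1cKO libraries. The highest Piezo1cKO ratio was thus well below the lowest WT ratio. The means were 0.310 ± 0.019 and 0.195 ± 0.0165 (SD, n = 3 each), a log2 difference of -0.67 (exact two-sided permutation test, p = 0.1, the smallest that 3 against 3 libraries can give). A ratio within a library does not depend on the scaling between libraries. It restates the values of the pair given above on another scale, and is not independent of them.

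Cybc1, the chaperone of this heterodimer, moved against Cybb. It had 1838, 1846 and 1848 normalized reads in WT and 2542, 2437 and 2515 in Piezo1cKO libraries, all 3 higher than any WT library. Its log2 fold change was 0.31 (SE 0.027, limma adjusted p = 1.55e-08) on the deposited scale and 0.44 on recovered reads, a rise to 135% of WT. The ratio of Cybc1 to Cybb reads, also added after the values were seen, was 0.765 to 0.806 in WT and 1.53 to 1.65 in Piezo1cKO libraries (log2 difference 1.01, exact permutation p = 0.1).

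**Figure D2:**
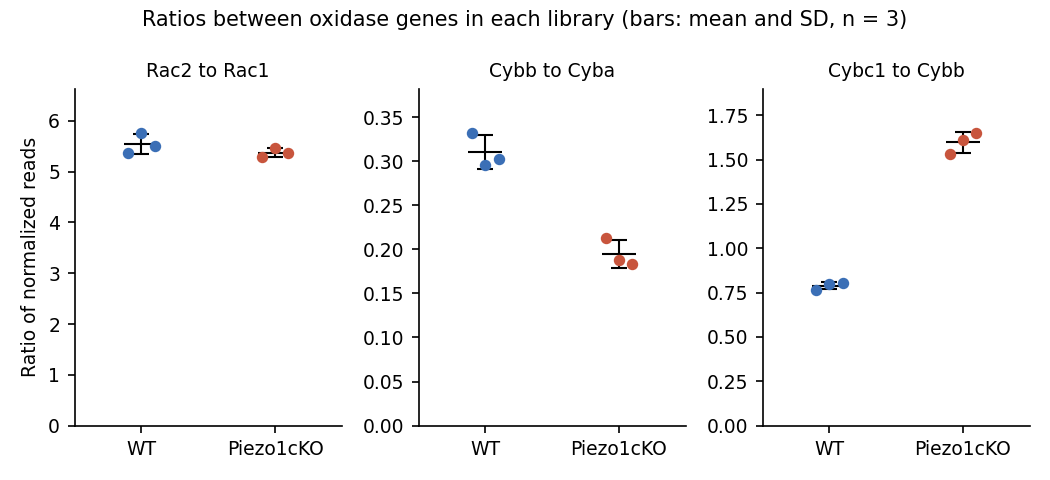
Ratio of normalized reads between pairs of oxidase genes in each library (vertical axes from 0), for WT (blue) and Piezo1cKO (red); dots are libraries and bars the mean and SD of 3. The Cybb to Cyba ratio goes from 0.310 to 0.195 and the Cybc1 to Cybb ratio from 0.789 to 1.60, with no overlap, whereas the Rac2 to Rac1 ratios overlap.

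The cytosolic members did not move together: Ncf4 rose and Ncf1 did not pass the test. Ncf1, which encodes the organizer p47phox (5:134220053-134229625, minus strand), had 1577, 1575 and 1513 normalized reads in WT and 1427, 1499 and 1435 in Piezo1cKO libraries. The groups did not overlap, but the highest Piezo1cKO library lay just below the lowest WT library. Its log2 fold change of -0.07 (SE 0.030) missed the threshold with a limma adjusted p of 0.0578, and 58.6% of all genes changed at least as much. Without Piezo1cKO replicate 2 the value was -0.082 with a limma adjusted p of 0.0435, and the threshold was also passed over genes with a mean value of at least 5 (adjusted p = 0.043) and without a variance trend (adjusted p = 0.036). With the replicate number as a block it was passed too (limma adjusted p = 0.0277), although these numbers were not taken to pair the libraries. Ncf1 shares 408 exon bases, 11.1% of its exons, with Gtf2ird2 on the opposite strand. The paper describes a template-switching protocol with transposase fragmentation, which does not keep the strand of the RNA. Reads in the shared bases could thus not be assigned by strand, and how the counting treated them is not given. Gtf2ird2 had 305 to 376 recovered reads per library and a log2 fold change of 0.10.

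Ncf4, which encodes the adaptor p40phox (15:78244801-78262580, plus strand), had 3314, 3268 and 3401 normalized reads in WT and 3608, 3671 and 3590 in Piezo1cKO libraries. All 3 Piezo1cKO libraries were above all WT libraries. The log2 fold change was 0.09 (SE 0.025, limma adjusted p = 0.0045), a rise to 109% of WT, and 50.3% of all genes changed at least as much. The call held in all 14 alternative settings. The 3 genes that followed it most closely over the 6 libraries were Gm43144, Qdpr and Adcy6, at a root mean square difference of 0.007 to 0.008 on the centred log2 values, against 0.046 for Ncf4 itself. Gm43144 and Adcy6 had deposited values of only 3.29 to 3.45, against a WT mean of 11.72 for Ncf4. The pull is stronger at low values, so a like difference on this scale is not a like change in reads.

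**Figure D3:**
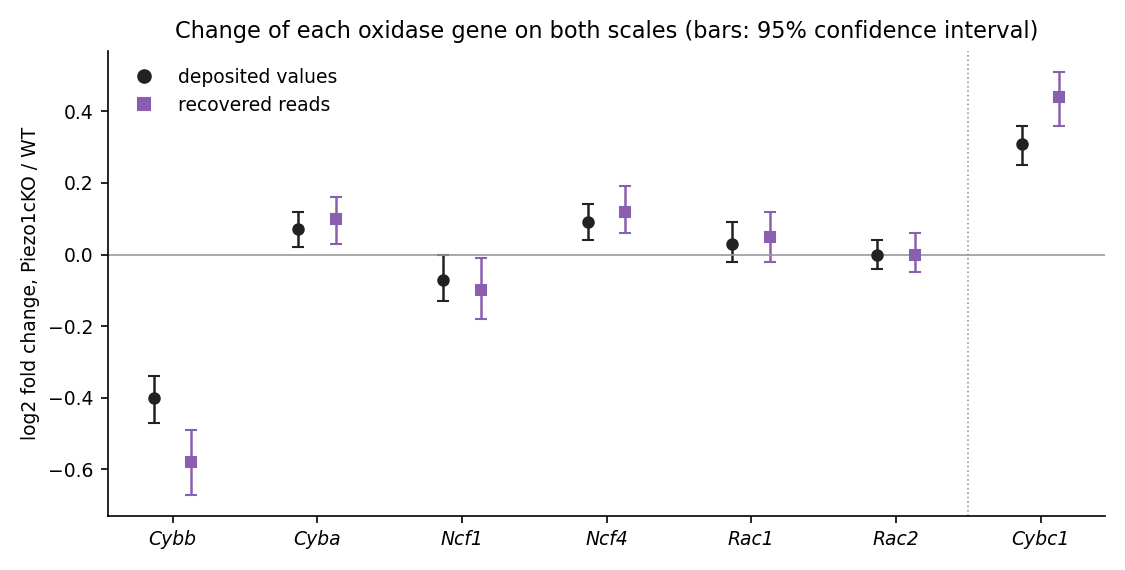
Log2 fold change of each oxidase gene, Piezo1cKO against WT (vertical axis), on the deposited values (black circles) and on recovered reads (purple squares), with 95% confidence intervals; the gene right of the dotted line is not a member. Cybb is the lowest gene (-0.40 and -0.58), Cybc1 is the highest (0.31 and 0.44), and the intervals of Rac1 and Rac2 include 0.

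The Rac GTPases showed no difference that passed the test. Rac1 (5:143503634-143528036, minus strand) had 2544, 2456 and 2480 normalized reads in WT and 2540, 2587 and 2604 in Piezo1cKO libraries, which overlap. Its log2 fold change was 0.03 with a 95% confidence interval from -0.02 to 0.09 (limma adjusted p = 0.272). Rac2 (15:78559167-78572783, minus strand) had 13641, 14157 and 13661 normalized reads in WT and 13434, 14128 and 13982 in Piezo1cKO libraries, again overlapping. Its log2 fold change was 0.00 with an interval from -0.04 to 0.04 (limma adjusted p = 0.935), and 98.3% of all genes changed at least as much. On recovered reads the intervals ran from 98.3% to 109% of WT for Rac1 and from 96.7% to 104% for Rac2, so that a change of Rac2 by 10% in either direction lies outside its interval. Rac2 gave 5.36, 5.76 and 5.51 times the reads of Rac1 in WT and 5.29, 5.46 and 5.37 times in Piezo1cKO libraries, which overlap (exact permutation p = 0.3).

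Levels of different genes were compared per length only, as RPKM, normalized reads scaled to the mean library total and to each kilobase of exon. Cyba was the highest of the members, with 488 ± 18.5 in WT and 522 ± 17.8 in Piezo1cKO LSCs (SD, n = 3 each, as for all levels here). Rac2 followed with 299 ± 6.32 and 300 ± 7.92, and Ncf4 with 111 ± 2.25 and 121 ± 1.41. Rac1, at 37.3 ± 0.678 and 38.5 ± 0.498, Ncf1, at 28.5 ± 0.664 and 26.7 ± 0.727, and Cybb, at 27.0 ± 0.680 and 18.1 ± 0.949, were the low members. The Rac1 level is over all its exon bases, 51.4% of which are shared with Daglb, as set out below. Ncf1 was somewhat above Cybb in WT LSCs, at 27.8 to 28.9 against 26.5 to 27.8, and in Piezo1cKO LSCs every Cybb value (17.6 to 19.2) was below every Ncf1 value (26.2 to 27.5). Cybc1 was at 29.4 in WT and 39.8 in Piezo1cKO LSCs. With the length of the principal transcript in place of all exons, the order of the 6 members was the same, with 38.4 for Ncf1 and 33.0 for Cybb in WT, but Cybc1 (51.3) then lay well above both. The level of the catalytic subunit per length was thus far below that of its partner in both groups.

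**Figure D4:**
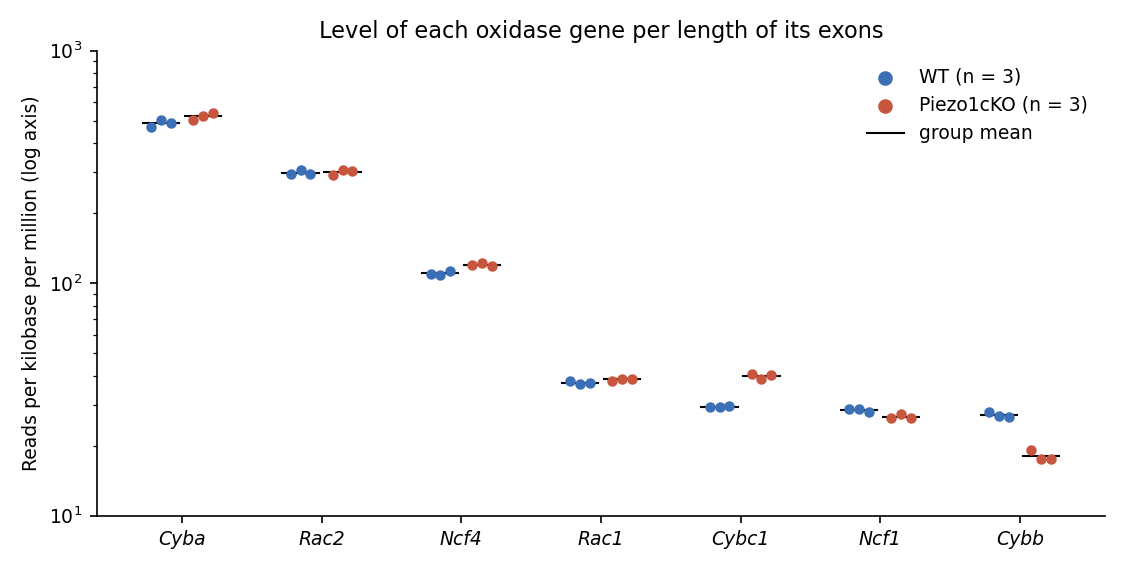
Level of each oxidase gene in RPKM (log axis), ordered by the WT mean, for WT (blue) and Piezo1cKO (red) libraries with group means as lines. Cyba (488 in WT) and Rac2 (299) lie highest, and Cybb and Ncf1 are closer in WT (27.0 and 28.5) than in Piezo1cKO LSCs (18.1 and 26.7). Rac1 is drawn over all its exon bases, 51.4% of which are shared with Daglb.

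Per kilobase, Rac2 was 8.03 ± 0.294 times Rac1 in WT and 7.79 ± 0.124 times in Piezo1cKO LSCs. These ratios depend on the length assigned to Rac1, because 2309 exon bases (51.4%) of Rac1 are shared with Daglb on the opposite strand. The libraries did not keep strand, so reads in these bases could not be assigned by strand. How they were counted is not given, and the Rac1 reads and read ratios above carry the same limit. With the shared bases left out of the length, a choice made after the values were seen, Rac1 was at 76.6 and 79.2 RPKM, and the ratio was 3.91 in WT and 3.79 in Piezo1cKO LSCs. Rac2 was the higher Rac with either length. Daglb had 2210 to 2549 recovered reads per library and a log2 fold change of 0.02.

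Other NADPH oxidase genes had few or no reads, apart from Cybc1. Of 11 such genes beyond the members, 3 were tested and 1 rose (Cybc1). Nox3, Duoxa1, Duoxa2 and Noxa1 were listed at 0 in all libraries, and Nox1, Nox4, Duox1 and Duox2 had a mean of at most 1.29 normalized reads per group and were not tested. Of the other 2 tested genes, Rac3, a further Rac GTPase, averaged 4.59 normalized reads in WT and 1.68 in Piezo1cKO libraries, and Noxo1 3.61 and 3.70, and neither passed the test. Cybb was therefore the catalytic NADPH oxidase subunit with the most reads in these LSCs, by a wide margin.

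**Figure D5:**
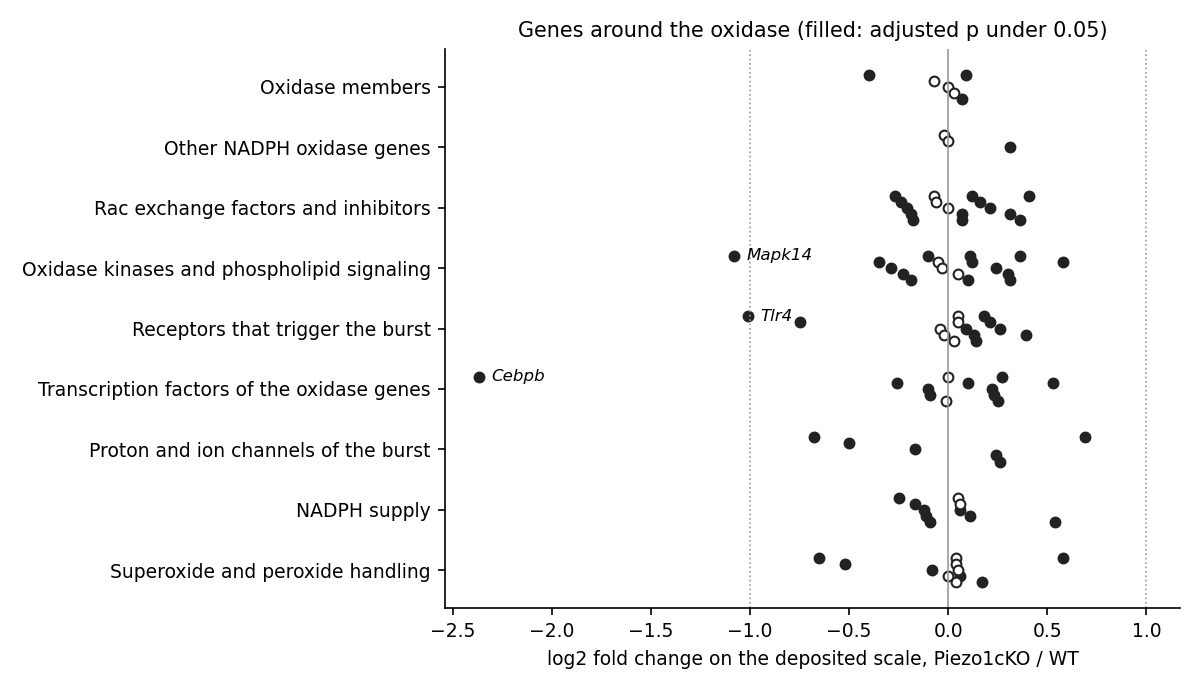
Log2 fold change on the deposited scale (horizontal axis) of every tested gene in the lists around the oxidase (rows), Piezo1cKO against WT. Filled points passed an adjusted p under 0.05, open points did not, dotted lines mark a log2 fold change of 1 in either direction, and the 3 genes past them, all lower, are Cebpb (-2.37), Mapk14 (-1.08) and Tlr4 (-1.01). On recovered reads, not drawn, Prkcz (2.34), Trpm2 (2.01), Prkca (1.77), Cebpa (1.2) and Itgam (1.01), all higher, and Fcgr2b (-1.06), lower, were DEGs too.

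Of 12 transcription factors of the oxidase genes, all tested, 6 rose and 4 fell (median log2 fold change 0.05). Over all genes tested, 31.6% rose and 31.4% fell, and the counts of this list and those below stand beside these shares. With the libraries shifted to one median, 6 rose and 2 fell, and under quantile normalization 5 and 2. Cebpb, a C/EBP factor of macrophages and of emergency granulopoiesis, fell most, from 950.5 ± 10.5 to 34.4 ± 1.73 normalized reads, with a deposited log2 fold change of -2.37 (limma adjusted p = 8e-20), and was a DEG. Its family member Cebpa, which drives granulocyte and monocyte commitment, rose from 122.5 ± 5.28 to 281.9 ± 2.07 normalized reads (log2 fold change 0.53). Spi1, which encodes PU.1, fell from 9645 ± 278 to 7527 ± 484 normalized reads (log2 fold change -0.26), and Runx1 rose from 552.7 ± 32.8 to 747.7 ± 23.5 (0.27).

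The kinases and lipid signaling enzymes that prime the oxidase were similarly divided, with 8 of 17 higher and 6 lower (median 0.05). Mapk14, the p38 kinase that phosphorylates p47phox during priming, fell from 1474 ± 24.2 to 465.5 ± 8.43 normalized reads (log2 fold change -1.08, limma adjusted p = 1.36e-15). It was the DEG of this list on the deposited scale, whereas recovered reads gave 3 DEGs, with Prkca and Prkcz higher. Of the protein kinase C genes, whose products phosphorylate p47phox, Prkca rose from 50.7 ± 3.54 to 175.3 ± 21.3 normalized reads (0.58) and Prkcz from 13.4 ± 2.41 to 70.0 ± 11.8 (0.36). Prkcb, the main classical form in neutrophils, fell from 444.2 ± 8.56 to 284.2 ± 31.0 (-0.35).

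The list of 17 receptors of the burst holds those that can trigger it and also the inhibitory Fcgr2b. Of these, 14 were tested, 7 rose and 2 fell, Fcgr2b among them (median 0.07), and Fpr1, Fpr2 and Fcgr1 were listed at 0. Tlr4, the endotoxin receptor, fell from 298.3 ± 3.83 to 48.3 ± 9.09 normalized reads (log2 fold change -1.01, limma adjusted p = 1.56e-13) and was a DEG. Fcgr2b, an inhibitory Fc receptor, fell from 3468 ± 83.7 to 1667 ± 79.4 (-0.75). Itgam, the alpha chain of the complement receptor Mac-1, rose from 99.5 ± 8.73 to 201.3 ± 18.9 (0.39), and Fcer1g, the common chain of activating Fc receptors, from 2744 ± 89.5 to 3547 ± 7.01 (0.26).

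Of 16 exchange factors and inhibitors of Rac and their partners, 8 rose and 5 fell (median 0.03). Arhgap25, a GTPase-activating protein that shuts off Rac in phagocytes, rose from 605.5 ± 6.18 to 952.6 ± 10.5 normalized reads (log2 fold change 0.41). The exchange factors Tiam2 (485.1 ± 35.0 to 733.6 ± 34.7, log2 fold change 0.36) and Tiam1 (195.5 ± 18.3 to 304.1 ± 13.1, 0.31) rose, whereas Vav3 fell from 236.4 ± 14.1 to 154.2 ± 23.8 (-0.27).

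All 6 proton and ion channels of the burst passed the test, 3 higher and 3 lower (median 0.04), where 63.0% of all genes tested passed. Trpm2, a cation channel opened by oxidative stress, rose from 53.3 ± 13.8 to 210.8 ± 18.4 normalized reads (log2 fold change 0.69), and Hvcn1, the proton channel that balances the charge moved by the oxidase, from 457.5 ± 28.3 to 620.4 ± 18.9 (0.26). Kcnn4, a calcium-activated potassium channel, fell from 2578 ± 95.3 to 1306 ± 32.2 (-0.68), and Clcn3, a chloride-proton exchanger of endosomes, from 446.5 ± 29.6 to 230.1 ± 5.96 (-0.50).

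Enzymes that supply NADPH, the substrate of the oxidase, gave 3 higher and 5 lower of 10 tested (median -0.02), and Me1 was listed at 0. With the libraries shifted to one median, or with reads scaled by library totals, 5 were higher and 5 lower. Pgls of the pentose phosphate pathway rose from 1150 ± 74.6 to 1997 ± 185 normalized reads (log2 fold change 0.54). The first enzyme of that pathway, G6pdx, fell to 88.9% of WT (-0.12), Nadk, which makes NADP, from 2507 ± 22.5 to 1958 ± 37.9 (-0.25), and Me2 from 6880 ± 60.2 to 5856 ± 61.8 (-0.17).

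Of 12 genes that handle superoxide and peroxide, 11 were tested, 3 rose and 3 fell (median 0.04), and Sod3 was listed at 0. This split depended on the scaling, with 6 higher and 2 lower when the libraries were shifted to one median, 5 and 2 for reads scaled by library totals, and 2 and 3 under quantile normalization. Sod1, the cytosolic dismutase that turns superoxide into peroxide, rose from 4705 ± 189 to 8170 ± 37.8 normalized reads (log2 fold change 0.58, limma adjusted p = 2.14e-13), and Cat, which breaks peroxide down, rose to 119% of WT (0.17). Mpo, the granule enzyme that turns peroxide into hypochlorous acid, fell to 54.5% of WT (-0.65), and Txnrd1, the thioredoxin reductase, from 1057 ± 1.65 to 601.9 ± 39.2 (-0.52). In this list, Mpo and Txnrd1 were thus among the lower genes and Sod1 and Cat among the higher. Of the 11 tested, 5 did not pass. Among the oxidase genes, Cybb was lower and Cybc1 higher, Cyba and Ncf4 rose slightly, and Ncf1, Rac1 and Rac2 did not pass.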

How the data were processed

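The table has 1 column for each of the 3 WT and 3 Piezo1cKO LSC libraries, and none was left out. Per the labels, the authors used fastp 0.20.1 for trimming, HISAT2 2.2.1 for alignment (GRCm38), featureCounts 2.0.1 for counting and DESeq2 1.28.1 for normalization. The deposited log2 values have the form of a regularized log, which the sources do not name. The main test was limma 3.58.1 (R 4.3.3; lmFit, then eBayes with a variance trend, no covariates) on the 16746 genes with a mean value of at least 1, with Benjamini-Hochberg adjustment.

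To recover reads, the size factors and the strength of the pull were fitted so that values became whole numbers (24 starts, 2 at the optimum). For genes averaging at least 1 read, 90.07% of values came within 0.1 of a whole number, against 21.97% with the pull set 10% off. limma-voom was run on genes whose reads summed to at least 10 over the libraries (17352). The reads have no molecular identifiers. Simulated Piezo1cKO and WT libraries had 200 of 17030 genes changed. The deposited scale found 199 and made 12 false calls, with fold changes at 0.577 of their true log2 size (median). Reads found 199 and made 8 false calls. These calls were not used to judge the recovery of reads. A share of changed genes as large as the 63.0% that passed in the LSC libraries was not tested.

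Members and gene lists were chosen with earlier results of these data known. The genes named are all members, Cybc1, Piezo1, in each list the DEGs and up to 4 genes with the largest change among those past the adjusted p, and the 3 nearest genes of the 2 members with the largest change. Genes overlapping a member, sex-linked genes, untested oxidase genes and single marker genes were added after their values were seen. Coordinates, exon lengths and coding sequences came from GENCODE M21, promoters from RefSeq. Some genes are not reported here. Other steps used Python 3.11.15 (numpy 2.4.6, scipy 1.17.1, pandas 2.3.3, matplotlib 3.10.9). Alternatives were other filters and scalings, a replicate block, no variance trend, each library left out, recovered reads and other gene lengths.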

Additional observations from a re-analysis of the deposited data

How the results depend on the processing

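Cybb, Ncf4 and Cybc1 kept their direction and their call in all 14 alternative settings, with log2 fold changes of -0.578 to -0.379, 0.079 to 0.141 and 0.298 to 0.456. Rac1 passed in 0 of 14. Cyba was at 0.047 (limma adjusted p = 0.115) under quantile normalization and at 0.070 without a variance trend, both past the threshold no longer, and at 0.049 to 0.089 with single libraries left out. Ncf1 passed over genes with a mean value of at least 5, without a variance trend and with the replicate block (-0.067 in each, limma adjusted p = 0.0277 with the block), and was at -0.082 to -0.058 with single libraries left out. Rac2 turned negative under quantile normalization (-0.043) and ran from -0.009 to 0.018 with single libraries left out, never past the threshold. The members higher were therefore 1 under quantile normalization and without a variance trend and 1 to 2 with libraries left out; the members lower were 2 over genes with a mean of at least 5, without a variance trend and with the replicate block, and 1 to 2 with libraries left out. Without a fold change threshold 3 members passed. The Rac2 to Rac1 ratio per kilobase was 7.59 in WT and 7.36 in Piezo1cKO LSCs with principal transcripts, and 3.91 and 3.79 without the exon bases shared with Daglb. The replicate numbers were not taken to pair the libraries, since same-numbered deviations correlated at 0.195, 0.161 and 0.07, although each library correlated best with its own number; with the block, 11055 of all genes passed against 10556 without it. Among the other results, list counts and ratios, 245 moved by less than the limits set and 11 moved by more. The cause of these shifts was not tested. At this depth the members had 1427 to 14157 normalized reads per library, whereas Nox1, Nox4, Duox1 and Duox2 had too few for a test.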
